A study of Mus musculus with 12 samples.

Results

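The subject here is the set of genes whose response to a high fat diet differed between endothelial cells of epididymal fat and endothelial cells of the mesentery. The comparison uses 6 pools of sorted cells, each with 1 mesenteric and 1 epididymal library, and so all 12 libraries of the series. In each pool the tissue gap was taken as the log2(normalized count + 1) of the epididymal library minus that of the mesenteric library carrying the same number. The gaps of the high fat pools 52, 53 and 88 were then compared with those of the chow pools 50, 51 and 87, which gives the diet effect in epididymal fat minus the diet effect in mesentery. Of 27825 genes in the table, 22238 had a mean of at least 10 normalized counts over the 12 libraries and were tested.

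All 4 groups came from male mice of the genotype ROSA26-eYFP+/+ Cdh5-CreERT2+, in which tamoxifen food, given for 2 weeks from 6 weeks of age, marked cells that use the Cdh5 promoter with a yellow fluorescent protein. From 8 weeks of age the mice ate chow with 5.8% fat or a high fat food with 60% fat for 12 to 13 weeks. Both tissues were digested with actinomycin D, an inhibitor of transcription, in the buffer, and live fluorescent cells were sorted from the combined tissue of 6 mice per sample. The sort rests on the reporter alone: a cell that carries it for any reason, or RNA that travels with a sorted cell, enters the library. The labels give each group 3 libraries but speak of 2 independent replicates, so the p-values measure the spread between these libraries, which may be partly technical. They do not say that the mesentery and epididymal fat sharing a number came from the same mice.

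Endothelial cells line all vessels, and those of fat tissue pass fatty acids and hormones between blood and adipocytes, while those of the mesentery line the vessels that serve the gut. Capillary endothelium is wrapped by pericytes, contractile cells whose tone is set in part by ATP-sensitive potassium channels. Obesity in mice is known to enlarge adipocytes, to lower some of their secreted proteins and to bring into epididymal fat macrophages that take up and break down lipid.

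Library totals ranged from 8348897 to 25397963 reads, and genes with at least 1 read from 23125 to 27691. Cdh5, the junctional cadherin that drives the Cre, was present in each of the 12 libraries at 2172 to 4822 normalized counts, and the endothelial adhesion molecule Pecam1 at 3730.1 to 12974. The epididymal libraries of pools 87 and 88 stood apart from the other epididymal ones, with 2014 and 2158 cpm (each library scaled to its own total) on olfactory and vomeronasal receptor genes against 105 to 193. In the mesenteric libraries this measure was 981, 261, 594 and 1993 cpm in pools 50, 51, 52 and 53. It was 3178 and 614 cpm in those of pools 87 and 88, so the number ranges overlapped there. Both number ranges occur on both diets. Mitochondrial reads made up 20.6% of the mesenteric library of pool 50 and 2.50% to 11.5% of the others. In the mesenteric library of pool 53 the 24 lymphocyte markers summed to 244995 normalized counts, against 1061 to 3916 in the other mesenteric libraries.

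Few genes passed the test of the difference itself. With limma on the 6 tissue gaps and Benjamini-Hochberg adjustment, 2 of 22238 genes (0.00899%) had an adjusted p under 0.05, and in both the gap was lower on the high fat diet. They were Kcnj8 and Cfd. Leaving out chow pool 50 or 51 gave 0 genes, leaving out chow pool 87 gave 17, leaving out high fat pool 88 or 53 gave 1 and leaving out high fat pool 52 gave 3. At an unadjusted p under 0.05 there were 565 genes with a higher gap (2.54%) and 664 with a lower gap (2.99%). The pools of the diets did not overlap for 1359 genes in the higher direction (6.11%) and 1086 in the lower direction (4.88%). The median SE of the difference was 0.78 on the log2 scale, so with 3 pools a side only large differences were detectable. The median difference over all genes was 0.11, and it was -0.16 when the columns were rescaled to the same total. That rescaling also moved the split at an unadjusted p under 0.05 to 282 higher and 1465 lower, so differences of single genes are read against these medians.

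Kcnj8 (ENSMUSG00000030247) encodes the pore subunit of the ATP-sensitive potassium channel of vascular cells. In chow mesentery it measured 80.8, 102 and 144 normalized counts in pools 50, 51 and 87, and in chow epididymal fat 2519, 2568 and 3247. On the high fat diet the mesentery of pools 52, 53 and 88 held 319, 369 and 384, and epididymal fat 903, 793 and 518. Every high fat mesenteric library was thus above every chow one, every high fat epididymal library was below every chow one, and the groups did not overlap. The tissue gap was 4.94, 4.64 and 4.49 (log2) in the chow pools and 1.50, 1.10 and 0.43 in the high fat pools. This gap fell by 3.68 (log2, SE 0.33, adjusted p 0.00990), and the diet effects behind it were 1.74 (SE 0.25, adjusted p 0.0505) in mesentery and -1.94 (SE 0.25, adjusted p 0.00449) in epididymal fat. The difference was -3.49 within pools 50 to 53 and -4.06 between pools 87 and 88. Without chow pool 50 the adjusted p was 0.0827, without chow pool 51 it was 0.0885, edgeR's quasi-likelihood test on the recovered reads gave 0.0986, and limma without the trend gave 0.738.

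Cfd (ENSMUSG00000061780) encodes adipsin, a serine protease of the complement system that adipocytes secrete. Chow mesentery held 2775, 2256 and 3556 normalized counts in pools 50, 51 and 87, and chow epididymal fat 50724, 58630.5 and 41784. On the high fat diet mesentery held 1365, 910.0 and 1158 in pools 52, 53 and 88, and epididymal fat 2440.3, 556 and 486. High fat libraries lay below chow libraries in both tissues, by far more in epididymal fat, and on the high fat diet the 2 tissues overlapped. The gap fell by 4.52 (log2, SE 0.50, adjusted p 0.0367), with diet effects of -1.32 (adjusted p 0.657) in mesentery and -5.84 (adjusted p 0.00021) in epididymal fat. The difference was -4.38 within pools 50 to 53 and -4.81 between pools 87 and 88. When the pool numbers were ignored the adjusted p of Cfd was 0.0713, and without chow pool 50, chow pool 51, high fat pool 53 or high fat pool 88 it lay between 0.0875 and 0.126. Over the 20 alternatives the difference of Cfd ranged from -5.13 to -4.08, edgeR gave an adjusted p of 0.284 and limma without the trend 0.738.

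**Figure D1:**
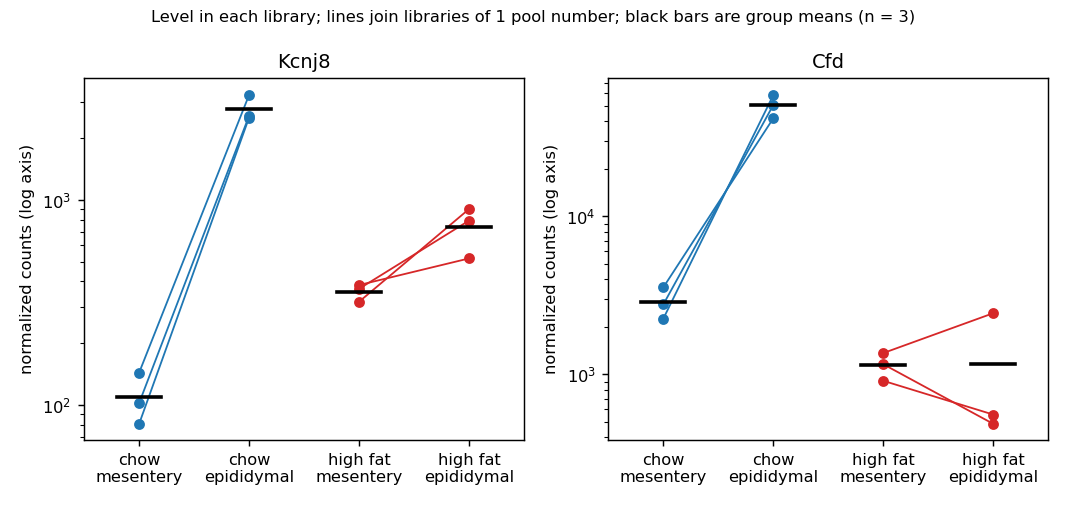
Normalized counts of Kcnj8 and Cfd in each of the 12 libraries on a log axis, with lines joining the mesenteric and the epididymal library of a pool and black bars at the group means (n = 3). Kcnj8 rises from 102 in mesentery to 2568 in epididymal fat in chow pool 51 but only from 384 to 518 in high fat pool 88, and Cfd in high fat epididymal fat lies at or below 2440.3, against at least 41784 on chow.

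Kcnj8 and other genes of the ATP-sensitive potassium channel and of pericytes were taken as a list of 20, all of them tested. Kcnj8 alone passed the adjusted threshold, while 9 of 20 had an unadjusted p under 0.05 in the lower direction, and 0 in the higher one, beside 2.99% and 2.54% of all genes. The median difference over the list was -1.57, beside a median diet effect of 0.78 in mesentery and -0.92 in epididymal fat, and 13 of 20 genes were higher on the high fat diet in mesentery and lower in epididymal fat. Steap4, a metalloreductase found in pericytes and adipocytes, had a difference of -3.13 (SE 0.58, adjusted p 0.194). It stood at 3194, 3016 and 2315 normalized counts in chow epididymal fat and 1144, 1165 and 702 in high fat epididymal fat, against 40.3 to 166 and 182 to 319 in mesentery. Rgs5, a regulator of G protein signalling used to mark pericytes, had a difference of -2.20 (SE 0.47, adjusted p 0.287). Abcc9, which encodes the regulatory partner of the Kcnj8 channel, had a difference of -1.61 (SE 0.82, adjusted p 0.938): its mesenteric libraries overlapped between the diets, at 22.4 to 134 and 22.2 to 187, while its epididymal ones did not, at 408 to 639 and 169.9 to 259.7.

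The direction was not common to the whole list. Pdgfrb, the receptor that pericytes need for recruitment, had a difference of -1.94, while Cspg4 stood at 1.25, P2ry14 at 0.98 and Mcam at 0.38; these 4 were chosen after their values were seen. The summed level of the list in epididymal fat was 25101 to 29514 normalized counts on chow and 9954 to 16168 on the high fat diet. In mesentery it was 4752 to 5315 on chow and 4410.1 to 6906 on the high fat diet, so there the sums overlapped although Kcnj8 did not. In bulk libraries, fewer cells of a type and less RNA per cell cannot be told apart, here and for every list that follows. The part that a change in the number of pericytes among the sorted cells had in the Kcnj8 result was not tested. Over all 12 libraries the genes most like Kcnj8 were Ppp1r1a, G0s2, Pparg, Steap4 and Sfxn1, with Pearson correlations of log2 values of 0.982, 0.973, 0.969, 0.968 and 0.967 in a search of 10584 genes whose mean was 100 or more. These points share their libraries, tissues and diets, and the values only describe likeness.

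**Figure D2:**
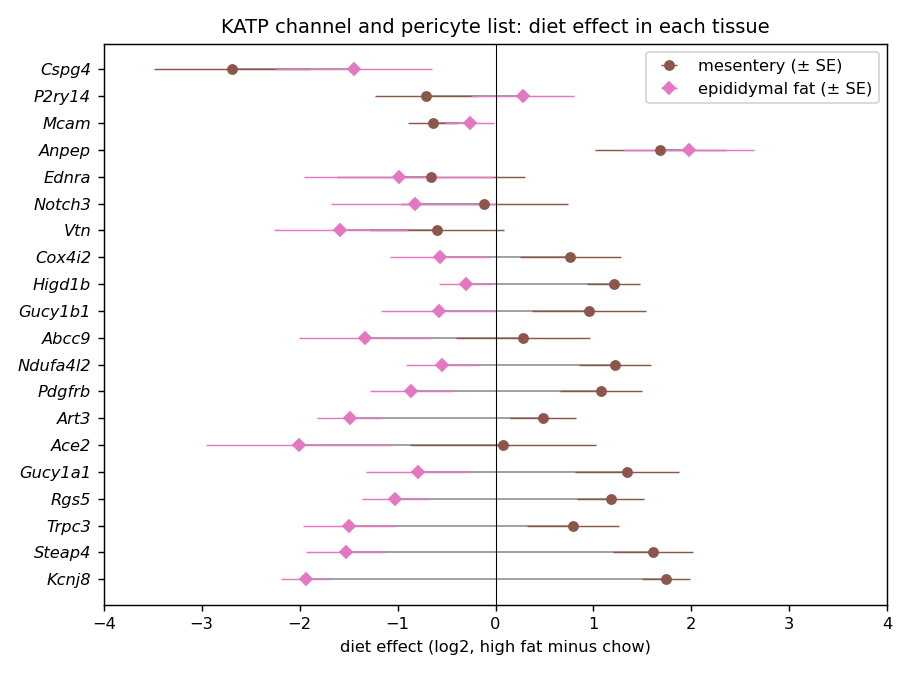
Diet effect (log2, high fat minus chow, ± SE) in mesentery and in epididymal fat for each of the 20 channel and pericyte genes, ordered by the difference. For Kcnj8 at the bottom the effects are 1.74 and -1.94, and for most genes of the lower part of the plot the mesenteric point lies to the right of 0 and the epididymal point to the left.

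Among the 33 lists the adipocyte genes gave the largest count in the lower direction. The lists differ in size, share members and were chosen with earlier results of these data known, so their ranking is a description only. All 27 listed genes were tested and 1 of them (Cfd) passed the adjusted threshold. An unadjusted p under 0.05 was found for 17 of 27, all 17 lower, beside 2.99% of all genes. The list's median difference was -1.43, with median diet effects of 0.70 in mesentery and -1.01 in epididymal fat. Its median tissue gap was 2.89, 3.13 and 2.30 in chow pools 50, 51 and 87 and 1.76, 0.59 and -0.77 in high fat pools 52, 53 and 88, so the pools of the diets did not overlap. Of the 27 genes, 17 had a diet effect above 0 in mesentery and below 0 in epididymal fat, and 8 were lower in both tissues.

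Adipoq encodes adiponectin, a hormone made by adipocytes. It stood at 6581, 7465 and 5585 normalized counts in chow epididymal fat and at 1951, 1081 and 526 in high fat epididymal fat. In mesentery it lay between 398 and 808 on chow and between 721 and 1314 on the high fat diet, where the ranges overlapped. Its difference was -3.45 (SE 0.61, adjusted p 0.194), and within epididymal fat it fell by 2.65 (adjusted p 0.00944). Nnat, which encodes neuronatin, a small membrane protein of the endoplasmic reticulum found in adipocytes, had a difference of -4.33 (SE 0.54, adjusted p 0.0698). Its epididymal libraries overlapped between the diets (1614 to 4713 and 498 to 1838), whereas in mesentery it lay between 87.3 and 263 on chow and between 635 and 1245 on the high fat diet.

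Lep, which encodes leptin, the satiety hormone whose level follows fat mass, had its larger diet effect in mesentery. There it measured 23.3 to 49.0 normalized counts on chow and 256 to 974 under high fat feeding, a rise of 3.71 (adjusted p 0.0210). In epididymal fat the ranges of 924 to 1136 and 467 to 1531 overlapped, with a diet effect of -0.14 (adjusted p 1.00). The difference for Lep was -3.86 (SE 0.76, adjusted p 0.214). Angptl4, an inhibitor of lipoprotein lipase that fatty acids induce, also had its larger diet effect in mesentery, with a rise of 3.07 (adjusted p 0.00931) in mesentery, a diet effect of 0.84 (adjusted p 0.598) in epididymal fat and a difference of -2.23 (SE 0.47, adjusted p 0.279). A difference below 0 thus came with a fall in epididymal fat for Adipoq and with a rise in mesentery for Lep and Angptl4.

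Pck1, which encodes the key enzyme of glyceroneogenesis in fat cells and was chosen after its values were seen, had the lowest difference of all genes tested, -6.13 (SE 1.19, adjusted p 0.214). It was at 17.1, 42.1 and 0 normalized counts in chow mesentery and between 133 and 419.9 in high fat mesentery. The difference of Pck1 was -4.24 within pools 50 to 53 and -9.91 between pools 87 and 88, so the library at 0 set much of it. Among the remaining members, Car3, Retn and Thrsp had differences of -4.04, -2.92 and -2.17, and each fell in epididymal fat (adjusted p 0.0408, 0.00354 and 0.00215); Car3 and Retn were chosen after their values were seen. Fabp4 and Cd36, which endothelial cells of fat are known to express themselves, had differences of -0.29 and -0.95 that did not pass and were likewise chosen after their values were seen.

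The amount of adipocyte transcript in the libraries was described by summed levels. These sums add up the genes of the list described above, so they are no separate support for the differences of those genes. Over the 21 adipocyte markers that are on no other list, the summed level in epididymal fat was 165766 to 228858 normalized counts on chow and 16748 to 68029 on the high fat diet. In mesentery it was 13466 to 18117 on chow and 19099 to 39749 on the high fat diet. These sums did not overlap between the diets in either tissue. The sums over all 27 genes, which include Fabp4 and Cd36, overlapped in both: 633795 to 929975 on chow and 434076 to 699251 under high fat feeding in epididymal fat, and 168478 to 185872 and 182396 to 246141 in mesentery. The part of adipocyte RNA among the sorted cells in these differences was not tested.

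**Figure D3:**
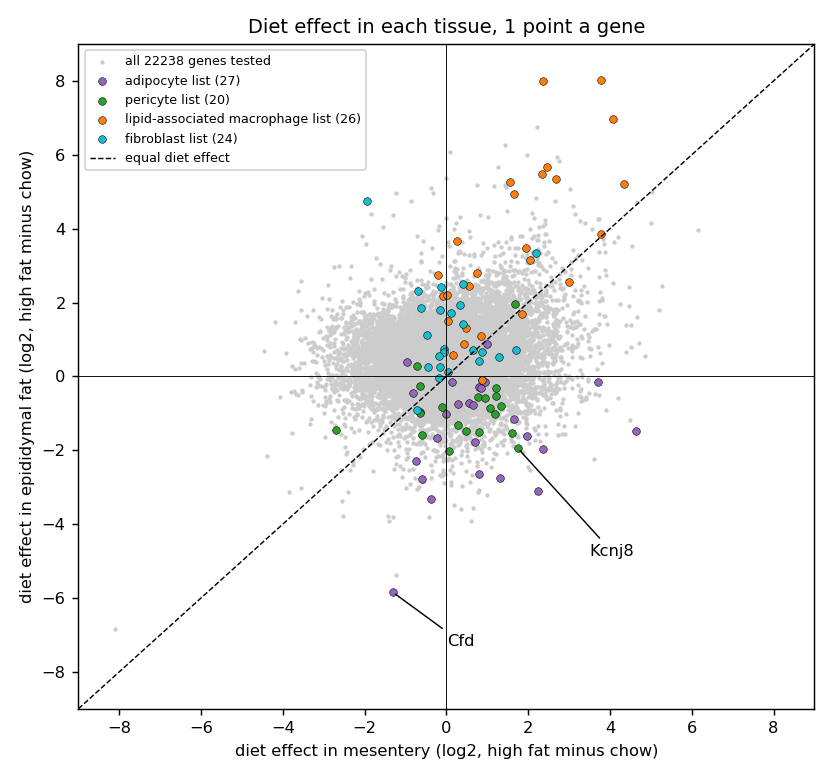
Diet effect in mesentery (x axis) and in epididymal fat (y axis), both log2 high fat minus chow, for all 22238 genes tested, with members of 4 lists coloured and a dashed line where the effects are equal. Adipocyte and pericyte genes lie mostly below the line, with list medians of -1.43 and -1.57, and lipid-associated macrophage genes mostly above it, with a median of 1.98.

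Enzymes that handle foreign and endogenous small molecules also leaned to the lower side. Of 24 listed genes 21 were tested and none passed the adjusted threshold with limma. An unadjusted p under 0.05 was found for 11, all lower, beside 2.99% of all genes. EdgeR called 0 of them and DESeq2 4, while 3 passed in pools 50 to 53, 2 with the number range as a covariate and 2 without chow pool 87. Over all 22238 genes these settings called 0, 157, 37, 40 and 17. The median difference over the list was -0.75, with median diet effects of 0.01 in mesentery and -0.88 in epididymal fat. Without chow pool 50 or without chow pool 51 the 11 lower genes became 6. Cyp2e1, a cytochrome P450 that oxidises ethanol and ketones, measured 4233, 3651 and 3103 normalized counts in chow epididymal fat and 228, 45.3 and 63.0 in high fat epididymal fat. In mesentery it was at 125 to 398 on chow and 52.4 to 137 under high fat feeding. The difference was -4.15 (SE 0.71, adjusted p 0.194). Ces1d, a carboxylesterase that hydrolyses stored triglyceride, had a difference of -3.69 (SE 0.63, adjusted p 0.194). Its 3 epididymal libraries fell from between 1463 and 1877 to between 109 and 248 (adjusted p 0.00854), while its mesenteric libraries overlapped.

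Ces2e, a carboxylesterase known from gut and liver that stands on none of the lists, differed from Ces1d in where it was expressed. It was a mesenteric transcript on both diets, at 1978 to 2709.6 normalized counts on chow and 2826 to 3264 under high fat feeding. In epididymal fat it went from 365, 114 and 90.9 in chow pools 50, 51 and 87 to 21.5, 23.4 and 13.5 in high fat pools 52, 53 and 88. On the high fat diet the absolute gap of Ces2e was the wider one, with a difference of -3.37 (SE 0.48, adjusted p 0.0959). Gsta3, a glutathione transferase, had a difference of -2.33 (SE 0.47, adjusted p 0.252) and fell by 3.04 in epididymal fat (adjusted p 0.00375). Cyp1a1, a target of the aryl hydrocarbon receptor, fell in both tissues (diet effects of -8.11 in mesentery and -6.84 in epididymal fat), and its difference of 1.27 (SE 0.97, adjusted p 0.953) was within the spread between pools. Aldh6a1, an enzyme of valine breakdown that stands on none of the lists, had a difference of -1.90 (SE 0.29, adjusted p 0.144).

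The remaining genes among the 10 lower ones were G0s2, Nr1d1 and Gnai1. G0s2 encodes an inhibitor of adipose triglyceride lipase and had a difference of -2.77 (SE 0.44, adjusted p 0.144). It was at 2515 to 3776 normalized counts in chow epididymal fat and 696 to 1463 in high fat epididymal fat, and its mesenteric level of 111 to 329 on chow lay below the 335 to 552 on the high fat diet. Nr1d1, a repressor within the circadian clock, had a difference of -3.00 (SE 0.48, adjusted p 0.144). Its mesenteric values were 91.1, 116 and 12.7 on chow and 251, 385 and 398 on the high fat diet, while its epididymal values overlapped between the diets. Of 19 clock genes 3 had an unadjusted p under 0.05, all lower, beside 2.99% of all genes, and the median of the list was -0.11. Besides Nr1d1 these were Dbp (-2.15) and Tef (-1.12), both activators whose transcripts oscillate over the day. Without chow pool 50 or without chow pool 51 there was 1 lower and 1 higher, without high fat pool 53 there was 1 lower, and without chow pool 87 there were 5 lower. The time of day of tissue collection is not given in the labels. Gnai1, which encodes an inhibitory G protein subunit, had a difference of -2.87 (SE 0.49, adjusted p 0.194), with -2.22 within pools 50 to 53 and -4.18 between pools 87 and 88.

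**Figure D4:**
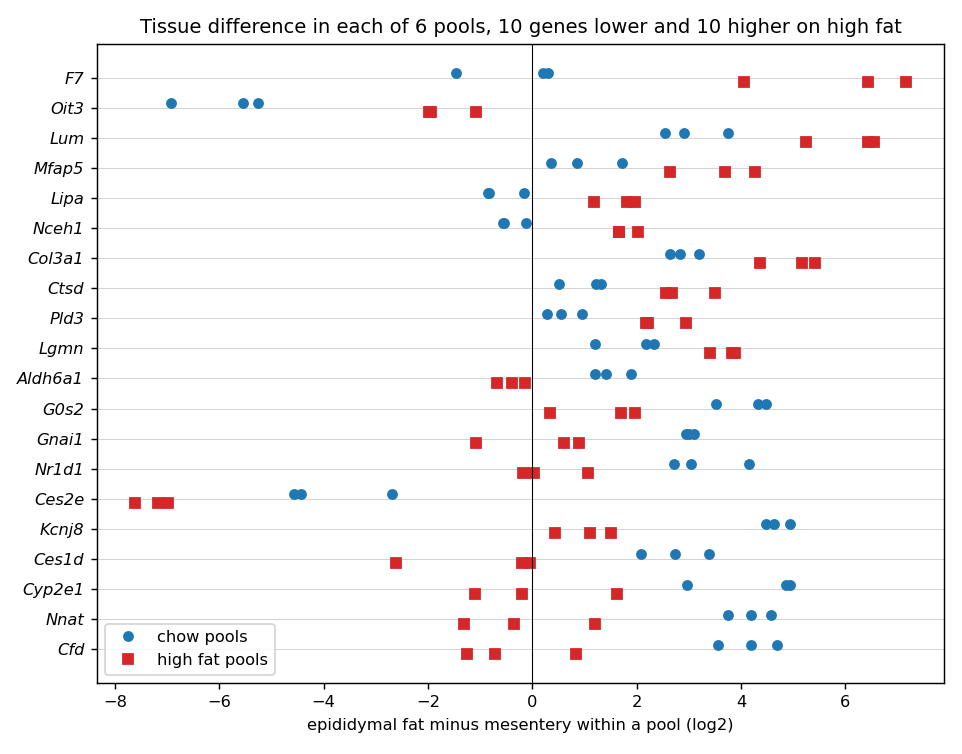
Tissue gap (log2, epididymal fat minus mesentery) in each of 6 pools for the 10 lower and 10 higher genes with the smallest p-values among those whose pools did not overlap, ordered by the difference. The rule that chose the genes fixes that circles (chow) and squares (high fat) are separate, and only Kcnj8 and Cfd passed the adjusted threshold.

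Among the 33 lists the one for lipid-laden macrophages had the largest count in the higher direction. This ranking, too, only describes lists that were chosen with earlier results of these data known. Macrophages in obese fat are known for a program of lysosomal enzymes and lipid receptors, and all 26 genes of a list for it were tested. None passed the adjusted threshold with limma and none with edgeR, whereas 6 passed with DESeq2, 6 with the number range as a covariate, 3 in pools 50 to 53 and 1 with a random block. Over all 22238 genes those last 4 settings called 157, 40, 37 and 3. With limma 14 of 26 had an unadjusted p under 0.05 in the higher direction and 0 in the lower one, beside 2.54% and 2.99% of all genes. The median difference over the list was 1.98, and 23 of 26 genes were higher on the high fat diet in both tissues. Median diet effects were 1.61 in mesentery and 2.98 in epididymal fat. The list's median tissue gap was 1.90, 3.17 and 0.44 in chow pools 50, 51 and 87. In high fat pools 52, 53 and 88 it was 3.64, 3.74 and 2.615, so the pools of the diets overlapped. Of these 26 genes, 13 rose in epididymal fat in the test within that tissue. In that test 122 of all genes (0.549%) passed, 93 of them higher and 29 lower. In mesentery 3 of all genes passed (0.0135%), none of them on this list.

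Lipa, lysosomal acid lipase, which frees fatty acids from cholesteryl esters and triglycerides, had a difference of 2.28 (SE 0.30, adjusted p 0.0780). Mesentery held 1125 to 1511 normalized counts on chow and 1155 to 1401 on the high fat diet. Epididymal fat went from 834, 1001 and 751 in pools 50, 51 and 87 to 2637, 4539.7 and 4919.5 in pools 52, 53 and 88. The diet effect for Lipa was thus -0.09 in mesentery and 2.18 in epididymal fat. Mesentery was the higher tissue in all 3 chow pools and epididymal fat in all 3 high fat pools. With the pool number as a random block Lipa passed beside Kcnj8 and Cfd.

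Nceh1, a neutral cholesteryl ester hydrolase, had a difference of 2.19 (SE 0.29, adjusted p 0.0780), with overlapping mesenteric libraries and epididymal values of 209 to 286 on chow and 643 to 1727 on the high fat diet. The aspartic protease gene Ctsd, also on the list, had a difference of 1.90 (SE 0.35, adjusted p 0.194). The asparaginyl protease gene Lgmn and the lysosomal exonuclease gene Pld3 are not on the list of lipid-associated macrophage genes. Lgmn had a difference of 1.80 (SE 0.33, adjusted p 0.194) and Pld3 one of 1.86 (SE 0.30, adjusted p 0.144). Ctsd, Lgmn and Pld3 all rose in epididymal fat, with adjusted p of 0.00837, 0.00837 and 0.00290. Trem2, a lipid receptor of such macrophages chosen after its values were seen, had a larger and less precise difference of 3.69 (SE 0.90, adjusted p 0.431). It went from between 74.6 and 162 to between 2295 and 5977 normalized counts in epididymal fat, but in high fat mesentery it measured 19.4, 78.1 and 484, so that pool 88 alone was high there. Gpnmb, a glycoprotein of lipid-laden macrophages also chosen after its values were seen, was in the same way at 7900.0 in the mesentery of pool 88 against 5.54 and 75.1 in pools 52 and 53.

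General macrophage genes were listed apart from the lipid-associated ones. Of 24, 1 (Lyve1, also a lymphatic gene) had an unadjusted p under 0.05, and it was lower, beside 2.99% of all genes. The median difference was 0.76, beside median diet effects of 1.59 in mesentery and 2.36 in epididymal fat. Tyrobp, a signalling adaptor of myeloid cells, had a difference of 1.80 (SE 0.86, adjusted p 0.925) that was 0.51 within pools 50 to 53 and 4.37 between pools 87 and 88. The 24 macrophage markers summed to 9614, 15925 and 100145 normalized counts in chow epididymal fat and to between 156854 and 393352 in high fat epididymal fat, with the highest chow value in pool 51. In mesentery the sums were 2991 to 13329 on chow and 8102 to 30802 on the high fat diet. Macrophage transcripts were thus present in every library of cells sorted for an endothelial reporter, they were highest in high fat epididymal fat, and their part in the differences of the lipid-associated list was not tested. Leaving out pools 87 and 88, the macrophage median was -0.22 and that of the lipid-associated list 1.86, with 13 of 26 genes at an unadjusted p under 0.05 in the higher direction. Leaving out chow pool 51 alone brought the macrophage list to 12 of 24 genes higher at that level, with a median of 2.17, and leaving out chow pool 87 alone to a median of -0.35.

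Of 24 fibroblast genes, all tested, none passed the adjusted threshold with limma or edgeR, DESeq2 called 5 and the fit with the number range as a covariate 2. Over all genes tested DESeq2 called 157 and that covariate fit 40. With limma 7 of the 24 fibroblast genes had an unadjusted p under 0.05, all higher, beside 2.54% of all genes. The median difference over the list was 0.78, with median diet effects of -0.06 in mesentery and 0.74 in epididymal fat. The median was 0.33 without pools 87 and 88, 0.43 without pool 87 and 1.19 and 1.20 without chow pool 51 and high fat pool 53. The list's median tissue gap was 3.09, 2.80 and 1.66 in chow pools 50, 51 and 87. In high fat pools 52, 53 and 88 it was 4.29, 2.98 and 3.40, so the pools of the diets overlapped. Lum, which encodes the collagen-binding proteoglycan lumican, measured 1974, 1399.6 and 972 normalized counts in the epididymal fat of chow pools 50, 51 and 87 and 6764, 7409 and 6455 in high fat pools 52, 53 and 88. In mesentery it stayed low, at 128 to 238 and 68.3 to 194. Its difference was 3.00 (SE 0.42, adjusted p 0.0959), and it rose in epididymal fat (adjusted p 0.0135). Col3a1, a fibrillar collagen gene, had a difference of 2.10 (SE 0.32, adjusted p 0.144), and Mfap5, a microfibril gene of fibroblast progenitors, one of 2.55 (SE 0.45, adjusted p 0.194).

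The differences varied within the fibroblast list. Dcn and Gsn, both abundant fibroblast transcripts, had differences of 0.71 and 0.40, and Pdgfra, the receptor most used to define fibroblasts, had -0.18, with means of 568 in chow and 244 in high fat epididymal fat. Mmp3, a matrix protease gene, had the highest difference of all genes tested, 6.70 (SE 1.43, adjusted p 0.284), with 0 reads in the mesentery of pool 52 and differences of 8.26 within pools 50 to 53 and 3.60 between pools 87 and 88. These 4 genes were chosen after their values were seen. The fibroblast markers summed to 69263 to 138995 normalized counts in chow and 102708 to 155553 in high fat epididymal fat, ranges that overlap. The separate list of 29 collagen and basement membrane genes had other counts. At an unadjusted p under 0.05, 1 was higher and 3 were lower, beside 2.54% and 2.99% of all genes. The median of this list was 0.22, or -0.05 with the columns rescaled to the same total.

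The remaining genes among the 10 higher ones were F7 and Oit3. F7 encodes coagulation factor VII, which starts clotting together with tissue factor. It was at 15.7, 37.4 and 20.4 normalized counts in the epididymal fat of chow pools 50, 51 and 87 and at 539, 1079 and 731 in high fat pools 52, 53 and 88. In mesentery it stayed between 12.5 and 57.7 on chow and between 2.77 and 64.2 on the high fat diet. The lowest of these, in pool 52, lay below the 3 reads taken as a floor of detection, which are 4.16 normalized counts in that library. The difference for F7 was 6.20 (SE 0.94, adjusted p 0.144) and the rise in epididymal fat 4.98 (adjusted p 0.0237). Oit3, an endothelial gene known from liver sinusoids, was the converse case of a mesenteric transcript, at 216 to 382 on chow and 154 to 244 on the high fat diet. It went from 0.783, 6.95 and 7.15 in chow to between 38.0 and 93.3 in high fat epididymal fat, with a difference of 4.24 (SE 0.68, adjusted p 0.144). The 0.783 of chow pool 50 lay below the floor of 3 reads, which are 2.35 normalized counts in that library.

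Cell cycle genes leaned higher as well. Of 27 genes 7 had an unadjusted p under 0.05, all higher, beside 2.54% of all genes. None of the 27 passed the adjusted threshold with limma or edgeR and 2 with DESeq2, which called 157 of all genes. The median over these 27 genes was 0.90, with median diet effects of 0.61 in mesentery and 1.86 in epididymal fat. Their median gap was 0.00, 0.87 and -0.17 in chow pools 50, 51 and 87 and 1.58, 1.71 and 1.86 in high fat pools 52, 53 and 88. Cdk1, the kinase that starts mitosis, measured 46.2, 91.2 and 83.7 normalized counts in chow epididymal fat and 247, 499.7 and 465 in high fat epididymal fat, against 132 to 221 and 165 to 210.5 in mesentery. Its difference was 2.13 (SE 0.41, adjusted p 0.214), and it rose in epididymal fat by 2.43 (adjusted p 0.00837). Ccnb1 and Ccna2, cyclins of the G2 and S phases, had differences of 3.73 and 2.85, with mesenteric values that overlapped between the diets. Without pools 87 and 88 the count was 4 of 27, and without chow pool 51 the median was 1.72. The cell cycle genes summed to 3323, 3907 and 3287 normalized counts in the epididymal fat of chow pools 50, 51 and 87. In high fat pools 52, 53 and 88 they summed to 6143, 11162 and 7962. The macrophage sums given above were also higher on the high fat diet there, with 100145 in chow pool 51. Which cells carried the cell cycle transcripts was not tested.

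**Figure D5:**
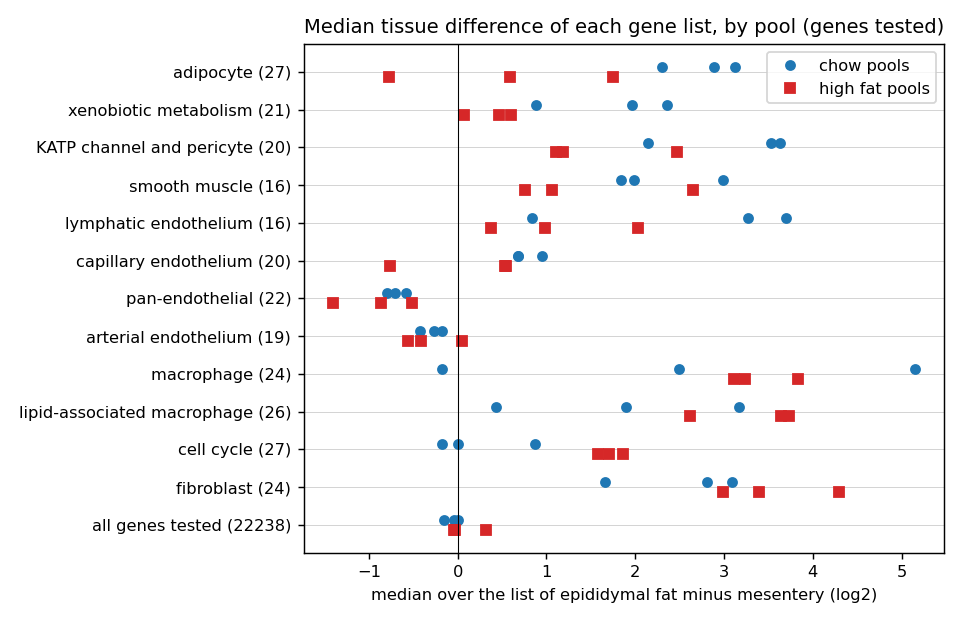
Median tissue gap (log2, epididymal fat minus mesentery) over the tested genes of each list in the 3 chow pools (circles) and the 3 high fat pools (squares), with the number of genes tested in brackets. Adipocyte medians lie at 2.30 to 3.13 on chow and -0.77 to 1.76 on the high fat diet, and cell cycle medians at -0.17 to 0.87 and 1.58 to 1.86. The diets overlap in the medians of the pericyte, smooth muscle, lymphatic, lipid-associated macrophage, macrophage, fibroblast, arterial and pan-endothelial lists.

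Over all genes tested, 2.54% were higher and 2.99% lower at an unadjusted p under 0.05. Of 22 genes that all endothelial cells share 1 was lower at that level. The median difference of these 22 was -0.31, with 20 of 22 below 0 and 17 of 22 lower on the high fat diet in both tissues. The 1 lower gene was Cldn5, the tight junction claudin, with a difference of -1.75 (SE 0.70, adjusted p 0.842). In the arterial list 0 of 19 genes had an unadjusted p under 0.05, and the median was -0.14. Among 20 capillary genes, 2 were lower and 1 higher at that level, with a median of -0.52. Timp4, an inhibitor of matrix proteases marking fat capillaries, had the lowest difference of these, -2.38 (SE 0.76, adjusted p 0.663), and Sgk1, a salt- and steroid-regulated kinase, the highest, 1.00 (SE 0.28, adjusted p 0.601). Of 16 venous genes 1 was lower and 1 higher, with a median of -0.09. Without chow pool 87 there were 6 lower venous genes and a median of -0.66, in pools 50 to 53 alone 6 lower and a median of -0.52, and without chow pool 51 there were 2 higher and a median of 0.19. The venous gene that was higher with all pools, Tmem252, a small membrane protein gene, rose in epididymal fat (1.08, adjusted p 0.0491) and had a difference of 1.38 (SE 0.32, adjusted p 0.379). These counts depended on the scaling: with the columns rescaled to the same total, 8 of 22 pan-endothelial, 8 of 20 capillary and 4 of 19 arterial genes were lower at an unadjusted p under 0.05, beside 6.59% of all genes. Without high fat pool 52, 4 of 22 pan-endothelial and 4 of 20 capillary genes were lower, and without chow pool 87 4 of 20 capillary genes. In pools 50 to 53 the pan-endothelial, capillary and arterial medians were 0.0019, -0.015 and 0.25, and without high fat pool 88 the arterial median was 0.17.

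Smooth muscle and lymphatic genes had lower medians than the blood vessel lists. Of 16 smooth muscle genes 5 had an unadjusted p under 0.05, all lower, beside 2.99% of all genes, with a median of -0.97. The median tissue gap of these 16 genes was 1.84, 2.99 and 1.99 in chow pools 50, 51 and 87. In high fat pools 52, 53 and 88 it was 2.65, 0.76 and 1.06, so the pools of the diets overlapped. Myl9, a myosin light chain gene, had a difference of -2.04 (SE 0.40, adjusted p 0.214), Acta2, smooth muscle actin, one of -2.32 (SE 0.54, adjusted p 0.379), and Des, the muscle intermediate filament desmin, one of -1.80 (SE 0.44, adjusted p 0.431). The diets did not overlap in the epididymal values of Myl9, at 6129.5 to 16996 on chow and 2849.8 to 5744 on the high fat diet, but did for Acta2, at 3700.0 to 12795 and 2016 to 4783. Leaving out pools 87 and 88 the median of the smooth muscle list was -0.50, and leaving out high fat pool 52 gave 9 of 16 lower genes and a median of -1.47. Pericyte and smooth muscle markers thus had medians of the same sign.

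Of 16 lymphatic genes 4 had an unadjusted p under 0.05, all lower, beside 2.99% of all genes. The median difference of the list was -1.27. Within pools 50 to 53 it was -2.46, and 10 of 16 were lower at that level, beside 3.76% of all genes. Leaving out single pools gave between 2 and 8 of 16: 8 without high fat pool 88, 7 without chow pool 87 and 2 without each of the others. Their median gap was 3.28 and 3.70 in chow pools 50 and 51 and 0.84 in chow pool 87, so 1 chow pool lay within the high fat range of 0.37 to 2.03. Lyve1, a hyaluronan receptor of lymphatic endothelium and of some macrophages, measured 9.11, 34.0 and 69.0 normalized counts in chow mesentery and 315, 422 and 108 in high fat mesentery, with overlapping epididymal values. Its difference was -3.39 (SE 0.83, adjusted p 0.431), with -4.91 within pools 50 to 53 and -0.34 between pools 87 and 88. Nts, which encodes neurotensin and is expressed by lymphatic endothelium, had a difference of -3.80 (SE 0.82, adjusted p 0.287) and was at or near 0 in chow mesentery, with 7.97, 0 and 1.41. Prox1, the transcription factor that defines lymphatic endothelium, had -0.26 and was chosen after its values were seen. In chow mesentery the summed lymphatic level was 4415, 4854 and 16071, highest in pool 87, and the mixture of lymphatic cells in each sort was not tested.

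Genes of fatty acid uptake and oxidation, 29 of 30 tested, had a median difference of -0.35. Beside 2.99% of all genes, 5 of the 29 had an unadjusted p under 0.05, all of them lower. Besides Angptl4 these included Pparg, the nuclear receptor of fat storage, at -1.28 (SE 0.31, adjusted p 0.406). The transporter genes named for the endothelium, Cd36 and Fabp4, are given with the adipocyte list, with which this list shares them. Nuclear-encoded genes of the respiratory chain had 0 of 25 at an unadjusted p under 0.05 and a median difference of -0.09. Of 29 tested Hox genes, which keep positional identity, 2 were lower at that level and none higher, beside 2.99% and 2.54% of all genes. The median of the Hox genes was -0.56.

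The series title names a loss of endothelial heterogeneity, and the tissue gap on each diet is described beside it. Of the 664 genes with an unadjusted p under 0.05 in the lower direction, 544 (81.9%) had a smaller absolute tissue gap on the high fat diet than on chow, and 569 (85.7%) were higher in mesentery and lower in epididymal fat on that diet. Of the 565 in the higher direction, 249 (44.1%) had a smaller gap, and 405 (71.7%) were lower in mesentery and higher in epididymal fat. Over all genes tested, 57.6% had a smaller gap and 46.7% moved in opposite directions in the tissues. Choosing genes for a difference by itself favours opposite directions. Choosing them for a lower difference also favours a smaller gap wherever the chow gap was above 0. These shares therefore describe the chosen genes and test nothing, a loss of heterogeneity included.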

How the data were processed

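The deposited table holds normalized counts, a signal per gene that per the file headers covers 12 libraries. Per the submitters' processing notes STAR 2.7.9a, featureCounts, Subread, DESeq2 1.34.0 and the build mm39 were used; annotation and strand use are not given in the sources used here, so genes that share reads with paralogs, overlapping or antisense genes are uncertain. All values were recovered as whole reads after division by a library-specific step (100% of values, tolerance 1e-06), and the lowest total of a gene over all libraries was 51 reads. The floor of 3 reads and the counts cover counting error only, since reads carry no molecular identifiers.

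Groups come from the sample titles and pool numbers from the descriptions. The difference was tested with limma 3.58.1 in R 4.3.3, on the 6 within-pool differences of log2(normalized count + 1), with an empirical Bayes trend on the mean log2 value and Benjamini-Hochberg adjustment over 22238 genes with a mean of at least 10; the threshold was an adjusted p under 0.05. Differences are on that scale, which understates low genes. Diet effects within a tissue came from a limma fit of 4 group means, adjusted in the same way. The pairing follows the shared pool number, as the comparison defines it. Deviations from the group means of the 2 libraries of a pool correlated at 0.03, 0.53 and 0.58 in chow pools 50, 51 and 87 and at 0.15, -0.11 and -0.15 in high fat pools 52, 53 and 88, so the data do not show that every number pairs its libraries.

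Alternatives were edgeR 4.0.16 and DESeq2 1.42.0 on the recovered reads and other settings given in the closing section. The scripts were tested on simulated data. Lists of genes (33 lists, 701 genes, some on several lists) are described by counts and medians beside those of all genes. Members, lists and settings were chosen with earlier results of these data known. Named are genes past the threshold, the 10 higher and 10 lower genes with the smallest p among those with a group mean of at least 100, no overlap of the pools and a plain symbol, up to 3 genes with the smallest p per list, and Cdh5, Pecam1, Kcnj8, Abcc9, Cyp1a1, Lep, Angptl4 and Cfd; any other gene is marked as picked after seeing its values.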

Additional observations from a re-analysis of the deposited data

Results flagged for a closer look

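Both genes that passed the test of the difference between the tissues are listed here because the test itself found that the diet effect was not the same in them. Kcnj8 had a difference of -3.68 (log2, epididymal fat minus mesentery, limma adjusted p 0.00990), and the gap was smaller in each of the 3 high fat pools than in each of the 3 chow pools. Cfd had a difference of -4.52 (limma adjusted p 0.0367), again with no overlap between the pools of the diets. The values of the pericyte and adipocyte markers that moved with them stand beside them above, and their part was not tested.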

How the results depend on the processing

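The count of 2 genes past the threshold was 2 with a pseudocount of 0.5 or 5, no filter, a mean of at least 50, TMM scaling or a robust trend. Without the replicate block, that is ignoring the pool numbers, it was 1 (Kcnj8, adjusted p 0.00218), with the pool number as a random block 3, with columns rescaled to the same total 3, with the number range as a covariate 40 (13 higher, 27 lower), in pools 50 to 53 only 37 (6 higher, 31 lower), with edgeR 0 (890 at an unadjusted p under 0.05), with DESeq2 157 (75 higher, 82 lower; 6036 genes got no adjusted p) and without the trend 0 (1099 at an unadjusted p under 0.05; both genes at adjusted p 0.738). Leaving out each pool in turn gave between 0 and 17: without replicate C on chow (pool 87) 17, without replicate A or B on chow 0, without high fat replicate B (pool 52) 3 and without high fat replicate A or C 1. Kcnj8 and Cfd were among the genes called by each setting that called more than 1. Of 81 genes followed through the 20 alternatives, 76 kept their sign in all and 54 passed in at least 1. The 5 that changed sign had not passed the test above: in pools 50 to 53 P2ry14 stood at -0.40, Gsn at -0.068 and Fabp4 at 0.034, with a pseudocount of 0.5 Prox1 stood at 0.031, and leaving out each pool in turn gave ranges of -2.24 to 1.22 for Prox1, -0.45 to 0.92 for Gsn and -1.42 to 0.50 for Pdgfra. The causes of the changed counts were not tested, and some of the fits held fewer libraries. With 3 pools a side and a median SE of 0.78, differences of ordinary size were not detectable.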

Other observations

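Further gene groups were described in the same way. Of 22 genes of fatty acid and triglyceride synthesis 4 had an unadjusted p under 0.05, all lower (all genes 2.99%), with a median difference of -0.44; besides Thrsp they included Dgat2, which makes triglyceride, at -2.65 (SE 0.76), and Scd1, the fatty acid desaturase, at -2.51 (SE 0.79). Of 23 interferon response genes 2 were lower and 1 higher at that level. Beside this and the counts below stand 2.99% of all genes lower and 2.54% higher. Among the interferon genes Ifi27l2a was at -1.80 (SE 0.46) and Rsad2 at -1.13 (SE 0.31). Of 22 immediate early genes 2 were higher, and the one with the smaller p, Nr4a2, an orphan nuclear receptor, had 1.45 (SE 0.36); without chow pool 87, 3 were lower and 1 higher, and without chow pool 50 or high fat pool 88 4 were higher. The 26 vasoactive genes had a median of -0.33 with 3 lower, among them the adenosine receptor Adora2a at -1.83 (SE 0.71).

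Transcripts of immune and neighbouring cells varied among the pools of a diet. The 11 class II antigen presentation genes had 0 at an unadjusted p under 0.05 and a median of 0.94, with gaps of 1.60, 3.98 and -0.71 in chow pools 50, 51 and 87. Without chow pool 51, 7 of 11 were higher with a median of 2.22, and without chow pool 87 the median was -0.69. Of 24 lymphocyte genes 1 was lower, and their median was 0.27, which was -1.03 without chow pool 87, -0.48 and -0.27 without high fat pools 88 and 52, and 1.02 without high fat pool 53; without high fat pool 88 5 were lower. Of 16 tested mesothelial genes 1 was higher, the complement gene C3, at 1.57 (SE 0.41), and 2 were lower. Their median was -0.48, and 0.24 without high fat pool 53. The mesothelial genes summed to 15349 normalized counts in the mesentery of pool 53, against 636 to 1685 in the other mesenteric libraries. Pancreatic enzyme genes, which were read in every mesenteric library at a summed 136398 to 819155 normalized counts and in epididymal libraries at 210.2 to 776, had 2 of 27 higher and a median of 0.75. Without chow pool 87, 15 of 27 were higher with a median of 1.95, and without chow pool 51 none was, with a median of -0.09.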
